A study of Rattus norvegicus with 8 samples.

Results

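Decorin (Dcn), biglycan (Bgn), fibromodulin (Fmod) and lumican (Lum), the small leucine-rich proteoglycans, were followed on 8 one-colour oligonucleotide arrays of the rat medial collateral ligament, the band on the inner side of the knee. A probe set was included where one of these names was its only gene symbol in the array's probe table. This gave 4 of the 4737 genes the table names alone, with 9 of 8799 probe sets, 4 for Dcn, 2 for Bgn, 2 for Fmod and 1 for Lum, and each is reported on its own. Ligaments were collected at 3 weeks from 4 groups of 2 arrays. The unloaded healing rats had the ligament torn in both knees and were suspended by the tail from 24 h later, so that the hind legs carried no weight. The loaded healing rats had the same injury and bore weight. The unloaded control rats were suspended without injury and without sham surgery, and the loaded control rats had sham surgery and bore weight. The labels used here give no strain, sex or age, and leave unsaid if a pair of arrays stands for different rats, pooled rats or repeats of 1 sample. The errors and p-values below therefore measure the spread between arrays, which may be technical.

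Small leucine-rich proteoglycans are secreted proteins built around a curved stack of leucine-rich repeats, which bind the surface of collagen fibrils and govern how fibrils grow and fuse. Decorin and biglycan carry chondroitin or dermatan sulfate chains, whereas fibromodulin and lumican carry keratan sulfate and share a binding region on type I collagen. Decorin is the main small proteoglycan of tendon and ligament, both decorin and biglycan bind transforming growth factor beta, and free biglycan can activate Toll-like receptors on macrophages.

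In RefSeq's list of rat genes (GRCr8), Dcn and Lum are neighbours on chromosome 7, next to the related gene Kera. Fmod lies beside the related gene Prelp on chromosome 13, and Bgn lies on chromosome X. Promoter sequences from the same assembly were at hand for 2 of the 4 genes, Fmod and Lum, and both are shown. These keratan sulfate members had opposite signs in loaded healing against loaded control, where neither gene passed the threshold. A link of the sequences to these signs was not tested. Each window holds the 250 bases before the start used by the table, which for Lum lies inside the span RefSeq gives the gene. Capitals mark matches to GGGCGG (the GC box) and CCAAT on either strand, chr13:48045317-48045566 and chr7:34245456-34245705, both on the plus strand.
Fmod: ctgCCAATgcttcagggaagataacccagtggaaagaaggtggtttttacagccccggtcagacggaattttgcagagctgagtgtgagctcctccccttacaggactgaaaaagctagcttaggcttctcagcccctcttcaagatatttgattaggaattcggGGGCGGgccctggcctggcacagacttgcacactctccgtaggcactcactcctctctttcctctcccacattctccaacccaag
Lum: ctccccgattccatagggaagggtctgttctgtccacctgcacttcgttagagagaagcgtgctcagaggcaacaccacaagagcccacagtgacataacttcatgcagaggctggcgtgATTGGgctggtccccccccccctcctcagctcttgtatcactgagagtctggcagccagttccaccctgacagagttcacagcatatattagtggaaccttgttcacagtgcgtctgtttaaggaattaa
The Fmod window held 1 match to GGGCGG and 1 to CCAAT, and the Lum window held 0 and 1. Of 33469 promoter windows of that length, 30.5% held GGGCGG and 34% held CCAAT, so neither match is uncommon. CANNTG, the E box, had 1 match in Lum and 0 in Fmod, against 65.5% of all windows, and TATAAA had 0 in both, against 12.9%. The motifs do not overlap in these windows, and a match is a string of letters and not a shown binding site.

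Values are signal intensities per probe set on a linear scale, and differences between groups are in log2 units with 45.9, the 10th percentile of the non-control values, added to each signal first. Both unloaded control arrays were unlike the other 6. Their Pearson correlation with those 6 across probe sets was 0.695 to 0.757, against 0.822 to 0.894 among the 6 themselves, and their 99th percentiles of signal were 5218 and 5303, against 8763 to 11045. Of the 389 probe sets that averaged at least 2500 in loaded controls, 46.8% were lower in unloaded controls by more than 1 log2 unit, against 10.6% of all 5244 tested. Suspension and the absence of sham surgery cannot be told apart in that group. Of 10 tendon and ligament fibroblast markers 7 were on the array, and Col1a1, Col1a2, Thbs4 and Comp were among them. In the 4 cartilage markers present (Col2a1, Acan, Cnmd and Chad) no probe set passed the filter on dim signal.

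Between injured and sham-operated ligaments of loaded rats, biglycan was the 1 member with a call, on 1 of its 2 probe sets. The U17834_at probe set of Bgn fell 2.61-fold (log2 -1.38 ± 0.25 SE, limma adjusted p = 0.0232, with n = 2 arrays in each group throughout). It was the 1 of 9 small proteoglycan probe sets called in loaded healing against loaded control, where 0.992% of all tested probe sets were called lower and 1.03% higher. The median of the 9 was -0.89, against -0.03 over all tested, with 7 negative and 2 positive values. Of all tested probe sets 47.6% were positive. Among the 2509 averaging at least 523.6 in loaded control, as all 9 members did, 38.8% were positive, with a median of -0.125. At an unadjusted p under 0.05 there were 5 of the 9, and 614 of 5244 probe sets in all. The groups did not overlap on 8 of the 9, as on 39.7% of all tested. In unloaded healing against loaded healing limma called 0 of 9, where 1.62% of all probe sets were called. There 3 of 9 had an unadjusted p under 0.05, as had 574 of 5244 probe sets in all. The median of the 9 was -0.02, against 0.06 over all tested, and the groups did not overlap on 5 of 9, against 39.7% of all.

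**Figure D1:**
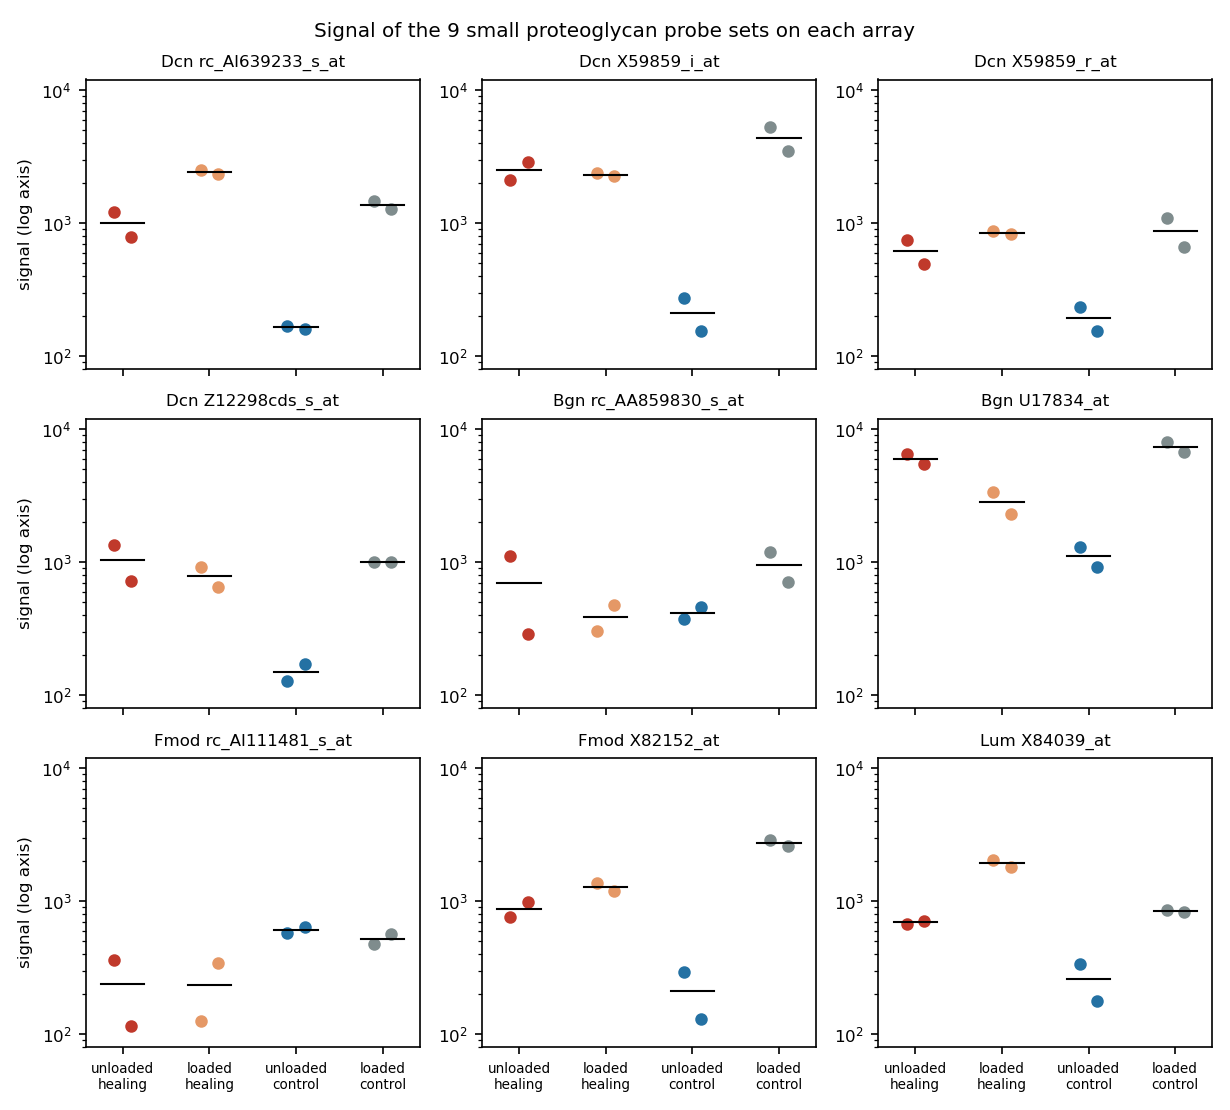
Signal of each of the 9 probe sets on a log axis, by group, with replicate 1 left and replicate 2 right of each bar, which marks the mean of the 2 arrays. The unloaded controls are lowest on 7 probe sets, Bgn U17834_at is lower on both loaded healing arrays than on either loaded control array, and Lum is highest in loaded healing.

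Biglycan was read by 2 probe sets. On U17834_at the signal was 6478 and 5504.2 in unloaded healing, 3378.8 and 2285.8 in loaded healing, 1297.6 and 922.3 in unloaded control, and 8014 and 6697.2 in loaded control. Loaded control was highest, then unloaded healing, loaded healing and unloaded control, with no overlap between neighbours. Loaded healing averaged 2832 ± 773, against 7356 ± 931 in loaded control (SD). The difference of unloaded healing from loaded healing was 1.09 ± 0.25 (adjusted p = 0.0760), and that of unloaded healing from loaded control was -0.29 ± 0.25 (adjusted p = 0.953, 95% interval -0.85 to 0.27).

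The call for Bgn in loaded healing rested on every array of the comparison. With loaded control 1 left out the limma adjusted p was 0.17, with loaded control 2 left out it was 0.109, and for loaded healing 1 and 2 it was 0.0501 and 0.175, with differences between -1.66 and -1.11. It was also lost with median centring (0.0815), with scaling to spike-in controls (0.119, difference -0.99), without a filter (0.054) and with a variance prior without an intensity trend (0.186). The other Bgn probe set, rc_AA859830_s_at, read 1110.1 and 287.5 in unloaded healing, 302 and 475.5 in loaded healing, 372.2 and 461.1 in unloaded control, and 1186.6 and 715.1 in loaded control. Its loaded healing arrays also lay below both loaded control arrays (-1.19 ± 0.58, adjusted p = 0.494), while its 2 unloaded healing arrays differed 3.86-fold from each other and overlapped all 3 other groups.

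An array control moved with Bgn. Beta-actin is a housekeeping transcript that the array reads as a control. Its 3' probe set was 4786.3 and 5235.2 in unloaded healing and 1353.1 and 1596.6 in loaded healing. It was 1283.9 and 1493.7 in unloaded control, and 4393.3 and 4955.3 in loaded control. Its Pearson correlation with Bgn U17834_at over the 8 arrays was 0.86 on the log2 scale, and 0.88 over the 6 arrays without the unloaded controls. With Lum it was 0.06 over 8 arrays and -0.99 over 6. The GAPDH 3' control was lower in loaded healing too, at 1038.5 and 842.6, against 2277.5 and 2334.6 in loaded control. The part of these shifts in the Bgn result was not tested.

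Lumican and 1 decorin probe set were highest in loaded healing. Lum X84039_at read 673.1 and 714.1 in unloaded healing, 2047 and 1826 in loaded healing, 339.4 and 177.6 in unloaded control, and 865.5 and 826.3 in loaded control. Both loaded healing arrays lay above all 6 others, and unloaded healing lay below loaded control. The difference of loaded healing from loaded control was 1.15 ± 0.35, a ratio of 2.22, and did not pass over all probe sets (adjusted p = 0.186, 95% interval 0.36 to 1.94). That of unloaded healing from loaded healing was -1.42 ± 0.35 (adjusted p = 0.102). The difference between the healing groups passed for Lum when the unloaded control arrays were left out of the fit (adjusted p = 0.0380) and with scaling to spike-in controls (0.0294). Unloaded healing differed from loaded control by -0.27 ± 0.35 (adjusted p = 0.984).

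Decorin, the neighbour of Lum on chromosome 7, gave different pictures on its 4 probe sets. On rc_AI639233_s_at it read 1201.8 and 785.3 in unloaded healing, 2489.6 and 2350 in loaded healing, 169 and 159.7 in unloaded control, and 1469.8 and 1272.6 in loaded control. The order of groups matched that of Lum, with no overlap between neighbours. Loaded healing differed from loaded control by 0.80 ± 0.31 (adjusted p = 0.327), and unloaded healing from loaded healing by -1.28 ± 0.31 (adjusted p = 0.0982). The difference between the healing groups passed on this probe set with spike-in scaling (adjusted p = 0.0237).

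The Dcn probe set X59859_i_at had the opposite sign in loaded healing. It read 2108.6 and 2883.8 in unloaded healing, 2360.1 and 2239.9 in loaded healing, 271.2 and 153.2 in unloaded control, and 5285.4 and 3470.4 in loaded control. Both healing groups lay below loaded control and overlapped each other. The difference of loaded healing from loaded control was -0.89 ± 0.32 (adjusted p = 0.266), and that of unloaded healing from loaded control was -0.79 ± 0.32 (adjusted p = 0.831). X59859_r_at, whose ID has the same stem, read 494.4 to 741.8 in unloaded healing, 827.1 to 867.3 in loaded healing, 154.6 to 234.7 in unloaded control and 664.2 to 1086.6 in loaded control. There loaded healing overlapped loaded control (-0.01 ± 0.42). Z12298cds_s_at read 719.5 to 1352.6 in unloaded healing, 647.2 to 914.7 in loaded healing, 127.3 to 172.5 in unloaded control and 1003.5 to 1007.7 in loaded control, a difference of -0.37 ± 0.41 between loaded healing and loaded control. So 0 of the 4 Dcn probe sets passed with limma in loaded healing, 2 had an unadjusted p under 0.05, and those 2 had opposite signs. Over the 8 arrays the 4 probe sets correlated with each other at 0.87 to 0.95, and over the 6 arrays without the unloaded controls at -0.25 to 0.69.

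Fibromodulin had the largest negative difference of the 9 probe sets in unloaded healing against loaded control. On X82152_at it read 757.8 and 992.4 in unloaded healing, 1373.8 and 1186.7 in loaded healing, 294.2 and 131.3 in unloaded control, and 2878.5 and 2624 in loaded control. The groups did not overlap, and both healing groups lay below loaded control. Loaded healing differed from loaded control by -1.08 ± 0.36 (adjusted p = 0.225). Unloaded healing differed from loaded control by -1.61 ± 0.36, a ratio of 3.06 (adjusted p = 0.320, 95% interval -2.42 to -0.80), and 0.706% of tested probe sets had a lower value there. Between unloaded and loaded healing the difference was -0.53 ± 0.36 (adjusted p = 0.671). In unloaded healing against loaded control limma called 0 of the 9 probe sets, where 0.0763% of all were called. There 2 of 9 had an unadjusted p under 0.05, as had 291 of 5244 probe sets in all. All 9 differences were negative with a median of -0.47, against 0.01 over all tested. The groups did not overlap on 6 of 9, against 32.3% of all.

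The second Fmod probe set, rc_AI111481_s_at, gave another order of groups. It read 359.3 and 116.1 in unloaded healing, 126.8 and 343 in loaded healing, 579.5 and 643 in unloaded control, and 479 and 568.3 in loaded control. Both healing groups lay below both control groups and overlapped each other. Loaded healing differed from loaded control by -1.13 ± 0.59 (adjusted p = 0.533) and unloaded healing from loaded control by -1.15 ± 0.59 (adjusted p = 0.914). Arrays of a healing group differed by up to 3.09-fold on this probe set, more than the ratio between the group means of healing and loaded control.

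**Figure D2:**
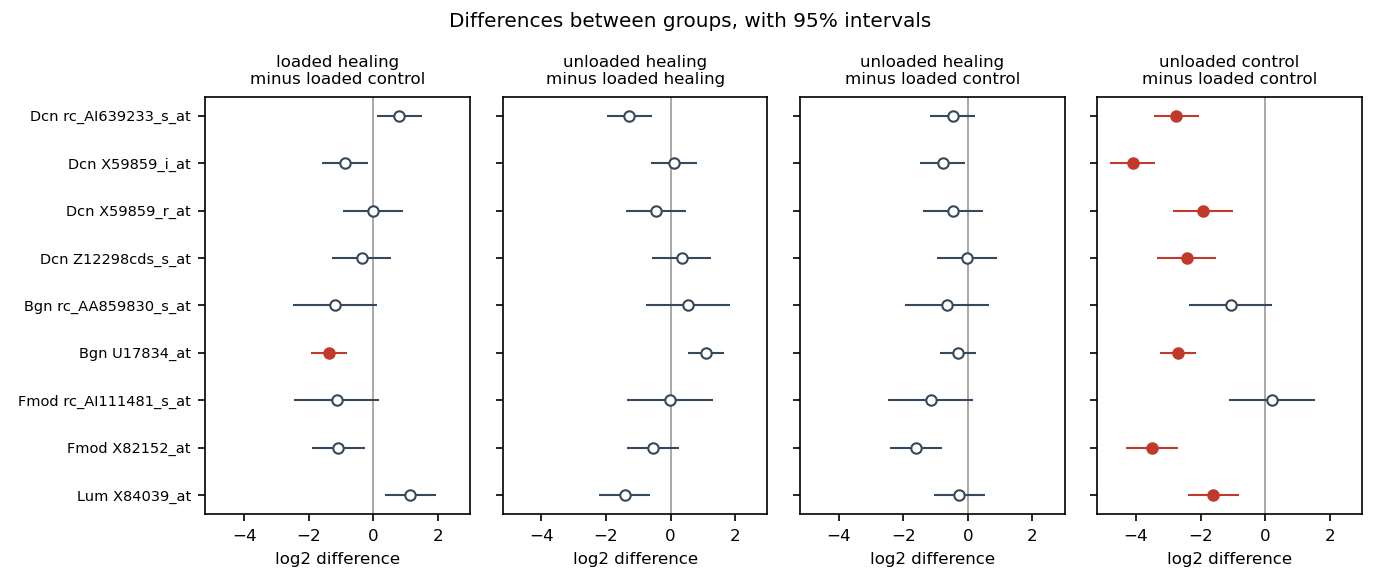
Log2 differences between groups for each probe set, with 95% intervals of the limma model; filled red points passed the adjusted threshold of 0.05 over all probe sets and open points did not. In loaded healing against loaded control the Bgn and Fmod points lie left of 0, Lum lies right of 0, and the 4 Dcn points lie on both sides.

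Markers of other cell types also differed in loaded healing. The summed signal of the 5 tested macrophage markers was 5223 and 4982 in unloaded healing, 19239 and 16903 in loaded healing, 4169 and 4196 in unloaded control, and 4544 and 4645 in loaded control. Most of the loaded healing sums was the lysozyme gene Lyz2, at 16260.4 and 13978. The list's median difference of loaded healing from loaded control was 0.09, with Cd14 at -0.25, Aif1 at -0.08, Ptprc at 0.09 and Fcgr2b at 1.88, and 1 of the 5 genes was called, Lyz2, which rose by 3.09 ± 0.24 in loaded healing against loaded control and read -2.60 ± 0.24 in unloaded against loaded healing, where it also passed. The 8 tested skeletal muscle markers summed to 12327 and 10215 in unloaded healing, 18382 and 12994 in loaded healing, 4565 and 4244 in unloaded control, and 9055 and 8820 in loaded control. Of these, 1 rose in loaded healing, Acta1 (1.18 ± 0.25). The 7 fibroblast markers summed to 60178 and 44354 in unloaded healing, 116194 and 100835 in loaded healing, 6079 and 5366 in unloaded control, and 96390 and 79375 in loaded control, and 1 of them, Comp, fell in loaded healing (-2.74 ± 0.45). In unloaded against loaded healing 2 fibroblast markers (Col1a2 and Thy1) and 1 muscle marker (Myh4, -1.42 ± 0.26) fell. Of the 2 tested adipocyte markers Lpl rose in loaded healing against loaded control (1.95 ± 0.31) and fell in unloaded against loaded healing (-2.05 ± 0.31). The other, Lep, read -0.29 ± 0.23 and 0.09 ± 0.23 in these comparisons. Fabp4, which the filter on dim signal left out, read 735.5 and 592.7 in loaded healing and 20.1 to 75.2 on all other arrays. Plin1 and Cfd, also left out, overlapped between loaded healing and loaded control. In loaded healing against loaded control, of 4 endothelial and 4 blood markers limma called 0, with 0 and 2 at an unadjusted p under 0.05. Of the 40 marker probe sets 0 read 0 on any array. In whole ligament, fewer cells of a type and less RNA per cell cannot be told apart, and the part of these markers in the proteoglycan values was not tested.

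In unloaded control ligaments 8 of the 9 small proteoglycan probe sets read lower than in loaded controls. Of the 9 probe sets 7 fell and 0 rose, where 6.22% of all tested probe sets were called lower and 0.591% higher. The groups did not overlap on 9 of 9, against 51.1% of all. Dcn X59859_i_at fell by 4.11 ± 0.32 (adjusted p = 8.31e-06), and the other 3 Dcn probe sets also fell, with differences of -2.75 for rc_AI639233_s_at, -2.44 for Z12298cds_s_at and -1.92 for X59859_r_at. Fmod X82152_at fell by 3.51 ± 0.36 (adjusted p = 8.37e-05), Bgn U17834_at fell by 2.69 ± 0.25 (adjusted p = 3.69e-05) and Lum fell by 1.60 ± 0.35 (adjusted p = 0.0209). Fmod rc_AI111481_s_at read 0.21 ± 0.59 there, with both unloaded control arrays above both loaded control arrays, and its sign turned with median centring (-0.03). The other Bgn probe set read -1.07 ± 0.58 (adjusted p = 0.382). The median of the 9 was -2.44, against 0.23 over all tested. Among probe sets averaging in loaded control at least the 523.6 of the lowest member, at least 1000 and at least 2500, the medians were 0.07 (n = 2509), -0.03 (n = 1223) and -0.65 (n = 389), and 3 of the 9 members lie in the last of these.

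Type I and III collagen and the tendon markers Thbs4 and Comp were low on the same 2 arrays. Col1a1 read 699 and 763.1 in unloaded control, against 75949 and 59573 in loaded control. Of 6 tested collagen genes that form or associate with fibrils 4 fell, and of the 7 fibroblast markers 5 fell, with a median of -3.32. The fibroblast markers Tnc (0.62 ± 0.28) and Pdgfra (0.14 ± 0.32) and the collagen Col12a1 (0.46 ± 0.44) read higher there and did not pass. Most of the fibroblast marker sum in loaded control was Col1a1. Of 5 macrophage markers 1 was called in unloaded against loaded control, Lyz2 (-1.58 ± 0.24), and the median of that list was 0.31. Of 4 blood markers 1 was called, Hbb (-1.52 ± 0.31), with Hbb-b1 at -0.74, Alas2 at 0.56 and Slc4a1 at -0.09. Of 8 muscle markers 2 fell, Myh4 (-2.18 ± 0.26) and Acta1 (-1.29 ± 0.25), and 2 read higher. The 3' actin control and the summed fibroblast and muscle markers were low on the unloaded control arrays too, with the values given above. The 5' actin control fell less, at 1237.9 and 947.3 in unloaded control, against 1581.4 and 1942.5 in loaded control. The GAPDH 3' control read 1885.6 and 2283.3 in unloaded control, against 2277.5 and 2334.6 in loaded control. The part of these in the proteoglycan differences was not tested. The call for Lum was lost without loaded control 1 (limma adjusted p = 0.106), loaded control 2 (0.0878), loaded healing 1 (0.05) or unloaded control 2 (0.124), and with the 2 compared groups alone (0.111). That for Dcn X59859_r_at was lost without loaded control 1 (0.153) or unloaded control 2 (0.123) and with the compared groups alone (0.0745).

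**Figure D3:**
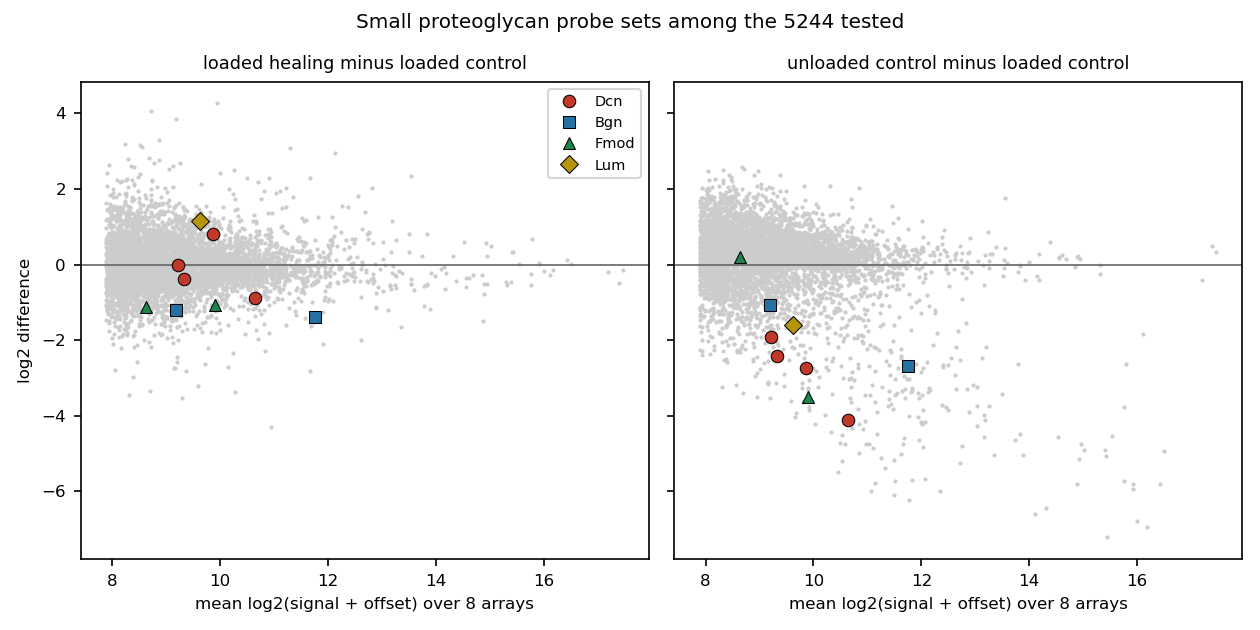
Log2 difference against mean log2 signal over the 8 arrays for all 5244 tested probe sets (grey) and the small proteoglycans (coloured by gene), for loaded healing against loaded control (left) and unloaded control against loaded control (right). On the right most proteoglycan points lie among a tail of bright probe sets that were low in unloaded controls, and the Fmod point above 0 is rc_AI111481_s_at.

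Against these low controls, unloaded healing ligaments read higher on 8 of the 9 probe sets. Of the 9 probe sets 5 rose in unloaded healing against unloaded control and 0 fell, where 6.41% of all probe sets were called higher and 1.05% lower. The groups did not overlap on 8 of 9, against 52.2% of all, and of these unloaded healing lay above on 7 and below on 1. The 1 below was Fmod rc_AI111481_s_at (-1.36 ± 0.59, limma adjusted p = 0.248). Bgn rc_AA859830_s_at overlapped (0.43 ± 0.58, limma adjusted p = 0.728). Dcn X59859_i_at rose by 3.32 ± 0.32 (adjusted p = 4.43e-05), Dcn Z12298cds_s_at by 2.41 ± 0.41, Bgn U17834_at by 2.40 ± 0.25, Dcn rc_AI639233_s_at by 2.28 ± 0.31 and Fmod X82152_at by 1.90 ± 0.36. Lum read 1.33 ± 0.35 (adjusted p = 0.0513) and passed under 7 of 19 alternative settings. The call for Fmod X82152_at was lost without unloaded healing 2 (limma adjusted p = 0.0628) and with the 2 compared groups alone (0.0841). Some markers of fibroblasts, blood and muscle and 1 of macrophages rose in the same comparison. Of the 7 tested fibroblast markers 4 rose, Col1a1 (5.76 ± 0.20), Thbs4 (3.24 ± 0.35), Col1a2 (2.47 ± 0.19) and Thy1 (1.80 ± 0.31). The median of that list was 1.80, Comp read 1.19, and Tnc (-0.54) and Pdgfra (-0.17) were negative. Of 4 tested blood markers 2 rose, the globin genes Hbb (3.33 ± 0.31) and Hbb-b1 (2.74 ± 0.26), while Alas2 read -0.76 and Slc4a1 0.25. Of 8 muscle markers 4 rose, Acta1 (2.30), Tnni2 (2.10), Tnnc2 (1.84) and Myh4 (1.75). Of 5 macrophage markers 1 rose, Lyz2 (2.07 ± 0.24), and the median of that list was -0.15. Among the rest of it Cd14 read -0.59, Ptprc -0.74, Aif1 -0.15 and Fcgr2b 0.48. Hbb-b1 also rose in unloaded healing against loaded control (2.00 ± 0.26). The part of these markers in the proteoglycan differences was not tested. These proteoglycan values and those of the preceding comparison share the unloaded control arrays, and between unloaded healing and loaded control, which leaves them out, 0 of 9 passed, as given above.

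The difference between healing and control ligaments, the healing effect, was not the same in unloaded and loaded rats for 4 of the 9 probe sets. This is the test of the interaction, where 4.52% of all probe sets were called higher and 0.324% lower. Only the loaded controls had sham surgery, so loading and sham surgery cannot be told apart in it. The healing effect was larger in unloaded than in loaded rats by 4.21 ± 0.45 for Dcn X59859_i_at, 3.78 ± 0.36 for Bgn U17834_at, 2.97 ± 0.51 for Fmod X82152_at and 2.78 ± 0.58 for Dcn Z12298cds_s_at. For each of these the healing effect was negative in loaded rats and positive in unloaded rats, where it is measured from the low unloaded controls. Of these negative effects in loaded rats only that of Bgn U17834_at was called. Dcn Z12298cds_s_at read -0.37 ± 0.41 there (limma adjusted p = 0.856), and its sign turned with spike-in scaling (0.017). Of the 7 fibroblast markers 4 also passed higher in this test, Col1a1 (5.52 ± 0.29), Comp (3.93 ± 0.63), Thbs4 (2.41 ± 0.50) and Col1a2 (1.79). Tnc (-0.64) and Pdgfra (-0.42) were negative there and Thy1 read 0.66. The collagen Col3a1 passed higher too (3.125), while Col5a2 (-0.79) and Col12a1 (-0.88) were negative. Of the 4 blood markers Hbb (2.31 ± 0.43) and Hbb-b1 (1.60 ± 0.36) passed higher, with Alas2 at -0.27. The part of these markers in the proteoglycan interaction was not tested. For Lum the 2 effects were 1.33 in unloaded and 1.15 in loaded rats, a difference of 0.18 ± 0.50 (adjusted p = 0.930, 95% interval -0.94 to 1.30). For Dcn rc_AI639233_s_at the healing effect had the same sign in both, with a difference of 1.47 ± 0.44 (adjusted p = 0.127). The other Fmod probe set, rc_AI111481_s_at, had a negative healing effect in both unloaded (-1.36) and loaded rats (-1.13). Its difference was -0.23 ± 0.84 (limma adjusted p = 0.948). That of the other Bgn probe set, rc_AA859830_s_at, was 1.62 ± 0.82 (limma adjusted p = 0.475).

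The genes whose patterns were most like those of the members were found by Pearson correlation of log2 signal over the arrays. The 8 arrays include the low unloaded controls and the 6 leave them out, and the correlations are a description. They are given for Lum, Dcn rc_AI639233_s_at, Bgn U17834_at and Fmod X82152_at, and not for the other members. High values were common with so few arrays. Over 6 arrays 44 of 4174 probe sets of other genes passed 0.95 for Lum, and 30 of 4171 for Dcn. For Bgn and Fmod 26 and 3 of 4173 did. Over 8 arrays Lum was most like Hspe1 (0.988) and Ctsb (0.985), and over 6 arrays most like Pgk1 (0.997), Eif3d (0.995), S100a4 (0.994) and Col3a1 (0.993), the chain of type III collagen. Dcn rc_AI639233_s_at was most like Thbs4, a thrombospondin of tendon, over 8 arrays (0.996), and over 6 arrays it was most like Cox6b1 (0.996) and Thbs4 (0.992). Bgn U17834_at was most like Edf1 (0.987), the laminin receptor and ribosomal protein Rpsa (0.981) and Rpl18 (0.979) over 8 arrays, and over 6 arrays it was most like Ager (0.998), Sftpb (0.989) and Kcnh2 (0.989). Fmod X82152_at was most like Gpx3 (0.964), the collagen crosslinking enzyme Lox (0.961) and Dcn X59859_i_at (0.954) over 8 arrays, and over 6 arrays it was most like Ccnd3 (0.953), Egfl7 (0.952) and Crispld2 (0.95). Among the members, Lum and Dcn rc_AI639233_s_at correlated at 0.92 over 6 arrays, whereas Lum and Bgn U17834_at correlated at -0.86.

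Genes that act with the small proteoglycans changed mostly in collagens and proteases. Of 13 other small leucine-rich proteoglycans 3 were on the array, and Omd, osteomodulin, was the 1 tested, with -0.65 ± 0.45 in loaded healing against loaded control. Of 6 tested genes of glycosaminoglycan synthesis and of 14 other proteoglycans, limma called 0 in each of the 6 comparisons, with at most 4 and at most 1 at an unadjusted p under 0.05. Of 11 tested growth factors and receptors that bind small proteoglycans it also called 0 in each, with at most 1 at that level. Among 10 proteases that can cleave them and inhibitors, 2 rose in loaded healing against loaded control, the macrophage elastase Mmp12 (3.85 ± 0.44) and the collagenase Mmp13 (3.20 ± 0.63). In unloaded healing against loaded healing 1 of these fell, Mmp12 (-2.74 ± 0.44). Of 6 collagens 2 fell there, Col1a2 (-1.99 ± 0.19) and Col3a1 (-1.20 ± 0.23), while 0 passed with limma in loaded healing against loaded control and 3 had an unadjusted p under 0.05.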

How the data were processed

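Gene expression was measured in rat medial collateral ligament on 8 arrays, 2 in each of 4 groups taken from the sample titles. The deposited values are signal intensity per probe set on a linear scale, with a trimmed mean close to 500 on each array. Which software summarised the probes is not given in the sources used here. Gene symbols are those of the array's probe table.

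The 59 control probe sets were set aside, the offset of 45.9 was added, values were taken to log2, and a filter on the mean over the 8 arrays dropped the dimmest 40%, leaving 5244. All 9 small proteoglycan probe sets passed this filter. The offset shrinks the differences of dim probe sets. Differences were estimated in limma 3.58.1 (R 4.3.3) from the 4 group means, with variances moderated along intensity (4 residual and 5.81 prior degrees of freedom). Tests were two-sided, with Benjamini-Hochberg adjustment over the 5244 probe sets within each of 6 comparisons and a threshold of 0.05. Gene lists used the brightest probe set of each gene. Named genes were all the small proteoglycan probe sets, the 5 most correlated probe sets of each, and list members past the threshold. The leading correlated ones are printed for Lum, Dcn rc_AI639233_s_at, Bgn U17834_at and Fmod X82152_at only. The members, lists and tests were chosen with earlier results of these data known. Alternatives were other scalings, offsets, filters, variance priors, a replicate block, fewer groups and leaving out each array. The number of arrays limits the precision.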

Additional observations from a re-analysis of the deposited data

Results flagged for a closer look

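The healing effect differed between unloaded and loaded rats, by the test of the interaction in limma, for 4 probe sets. The log2 difference of the effects was 4.21 for Dcn X59859_i_at (adjusted p = 0.000145), 3.78 for Bgn U17834_at (adjusted p = 5.46e-05), 2.97 for Fmod X82152_at (adjusted p = 0.00494) and 2.78 for Dcn Z12298cds_s_at (adjusted p = 0.0186). The last of these, for Dcn Z12298cds_s_at, did not pass without loaded control 1 (adjusted p = 0.0718), loaded control 2 (0.0704), loaded healing 2 (0.0924), unloaded control 1 (0.0614) or unloaded healing 1 (0.0869), nor with spike-in scaling (0.0789). All 4 values rest on the low unloaded control arrays, whose rats had no sham surgery. Loading and sham surgery therefore cannot be told apart in them. The other Fmod probe set, rc_AI111481_s_at, read -0.23 (limma adjusted p = 0.948). The other Bgn probe set, rc_AA859830_s_at, read 1.62 (limma adjusted p = 0.475).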

How the results depend on the processing

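In loaded healing against loaded control 1 probe set was called, and 0 were with median centring, spike-in scaling, no filter or no intensity trend, and 0 to 1 when leaving out 1 array. In unloaded against loaded healing 0 were called, against 2 with spike-in scaling, 1 with the replicate block (Bgn U17834_at, adjusted p = 0.0139) and 1 without the unloaded control arrays. The counts in the other 4 comparisons stayed within 1.5 times under the alternatives run. Same-numbered arrays deviated together only in part (correlations of 0.00 to 0.20 over 6 pairs of groups), so the numbers were not taken as a pairing. Besides Bgn U17834_at, the replicate block also gave a call for Lum (adjusted p = 0.0452) and Dcn X59859_r_at (0.0458) in unloaded healing against unloaded control. Spike-in scaling moved the median of all probe sets to 0.34 from -0.03 in loaded healing and to -0.40 from 0.06 in unloaded against loaded healing, so changes there are relative to those shifts. Over all probe sets 54 were called higher and 52 lower in loaded healing (84 and 22 with spike-in scaling, 29 in all without an intensity trend, 64 with median centring, 70 without a filter, 27 to 37 leaving out an array of the comparison), and 40 and 45 in unloaded against loaded healing (18 and 119 with spike-in scaling, 42 in all with median centring, 16 without a trend, 25 to 50 leaving out an array of the comparison). Quantile normalization gave 206 higher and 385 lower in unloaded against loaded control (31 and 326 as reported), 391 and 239 in unloaded healing against unloaded control (336 and 55), and 251 and 79 in the interaction (237 and 17), which spike-in scaling split 184 and 48. Without unloaded control 1 or 2, the 31 higher became 8 and 8, the 55 lower became 16 and 19, and the 17 lower became 13 and 6, and over all arrays left out of each comparison these ran between 8 and 39, 16 and 99, and 6 and 32. Median centring gave 7, 33 and 8. In unloaded healing against loaded control 4 were called, and 0 to 7 under the alternatives.

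Signs turned only for values that did not pass, and the cause was not tested. With spike-in scaling, Dcn X59859_r_at read 0.38 and Z12298cds_s_at 0.017 in loaded healing against loaded control, X59859_i_at -0.39 and Z12298cds_s_at -0.13 in unloaded against loaded healing, and Lum -0.38 in the interaction. X59859_r_at read 0.009 with quantile normalization in loaded healing, Fmod rc_AI111481_s_at -0.034 with median centring in unloaded control against loaded control, and Lum -0.028 with a larger offset in the interaction. Leaving out 1 array, X59859_r_at ran between -0.34 and 0.33 in loaded healing. In unloaded against loaded healing X59859_i_at ran between -0.12 and 0.32, Z12298cds_s_at between -0.092 and 0.78, Bgn rc_AA859830_s_at between -0.35 and 1.44, and Fmod rc_AI111481_s_at between -0.68 and 0.65. In unloaded healing Bgn rc_AA859830_s_at ran between -0.47 and 1.33 against unloaded control and between -1.54 and 0.26 against loaded control, where Z12298cds_s_at ran between -0.46 and 0.41. In the interaction Fmod rc_AI111481_s_at ran between -0.89 and 0.44 and Lum between -0.21 and 0.58. Where an array was left out, the other array of its group was assumed to vary like the other groups.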
